A study of Homo sapiens with 50 samples.

Results

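NIBAN1 and NIBAN2 are the broadly expressed paralogs of the niban family, and their messenger RNA was followed here across 17 groups of A549 cells, a human lung adenocarcinoma line. All probe sets that the array annotation assigns to these 2 genes, under their older symbols FAM129A and FAM129B, were taken: 3 for NIBAN1 and 2 for NIBAN2, hence 5 of 49293 probe sets, and 2 of 18236 genes. NIBAN1 was chosen by measured values, having the largest effect of compound 16 at 24 h without serine, so that comparison and every other one that uses either of its 2 groups is described below without a test. NIBAN2 joined as its paralog.

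The cells had grown in RPMI and were moved to a BME medium with non-essential amino acids, either without or with serine, 24 h before they received compound 16 at 1 uM or its DMSO vehicle. The compound is an activator of pyruvate kinase M, going by the title of the study, which asks how such activation bears on the need for serine. Arrays cover compound 16 and DMSO in medium without serine, and the same treatments in medium with serine, each at 0, 1.5, 6 and 24 h after the addition. A further group holds cells taken in full medium before the change. Each group has 3 arrays, except DMSO with serine at 1.5 h with 2 arrays. All groups are the same line, in which KRT8, KRT18, KRT19 and EPCAM, markers of epithelial cells, lay at the 80.9th percentile of gene signal or above. The 8 markers of leukocytes, endothelium and fibroblasts that were examined ranged from 3.76 to 6.99 on the log2 scale over all arrays, with CD14 the highest, at or below the 47.0th percentile. Whether replicate arrays stem from separate cultures is not stated in the labels, hence a p-value weighs only array-to-array spread, possibly technical. The numbers that end the sample titles, used here to name arrays, run in blocks by time and group by group. What they count is not stated, and a drift along that order cannot be told apart from the groups. Nor can fewer cells of a kind and less RNA per cell be told apart in RNA from whole cultures.

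NIBAN1 encodes a cytoplasmic protein that is induced by several kinds of cell stress. It has been linked to the phosphorylation of the initiation factor eIF2alpha and of the translation regulators S6K1 and 4E-BP1, and to AKT, nucleophosmin and MDM2 upstream of p53. NIBAN2, also called MINERVA, sits at the cell membrane and at adherens junctions, is phosphorylated downstream of growth factor receptors, and has been reported to bind KEAP1, the inhibitor of the transcription factor NRF2, which is mutated in A549 cells. When an amino acid is short, the kinase GCN2 phosphorylates eIF2alpha, and the factor ATF4 is made and drives genes of amino acid synthesis, transport and tRNA charging.

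NIBAN1 lies on chromosome 1 at positions 184791032 to 184974508 and NIBAN2 on chromosome 9 at positions 127505343 to 127579031, both on the minus strand, in the RefSeq annotation of GRCh38.p14. Since NIBAN1 moved strongly between groups and NIBAN2 hardly did, the 250 bases before each annotated start are shown, from RefSeq on the same build, at chr1:184974509-184974758 and chr9:127579032-127579281. Capitals mark matches to 5 motifs searched on both strands, which were the C/EBP-ATF element TGATGNAA that ATF4 binds with C/EBP partners, the cAMP response element TGACGTCA, the antioxidant response element TGACNNNGC of NRF2, the AP-1 site TGANTCA and the E-box CACGTG.
NIBAN1: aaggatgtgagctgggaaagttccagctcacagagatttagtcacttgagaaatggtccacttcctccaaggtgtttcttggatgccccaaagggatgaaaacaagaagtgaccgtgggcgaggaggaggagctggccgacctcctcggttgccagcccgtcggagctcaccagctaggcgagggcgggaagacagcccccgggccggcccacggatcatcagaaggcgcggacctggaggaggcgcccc
NIBAN2: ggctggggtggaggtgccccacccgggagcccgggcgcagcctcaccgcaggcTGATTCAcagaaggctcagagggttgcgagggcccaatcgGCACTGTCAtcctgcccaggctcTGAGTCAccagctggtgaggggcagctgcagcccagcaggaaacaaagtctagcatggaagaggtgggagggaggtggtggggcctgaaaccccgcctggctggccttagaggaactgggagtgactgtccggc
The NIBAN1 window, with 61.2% G and C, held none of the 5 motifs. The NIBAN2 window, with 66% G and C, held 2 AP-1 matches, at bases -197 to -191 and -134 to -128 before the start, and 1 antioxidant response element match on the opposite strand at -157 to -149, and these matches did not overlap. Among 35116 RefSeq promoter windows of the same length, 3.14% held the C/EBP-ATF element, 1.65% the cAMP response element, 10.9% the antioxidant response element, 6.57% the AP-1 site and 6.34% the E-box. A match is a run of letters in this window and not a shown binding site.

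NIBAN1 was represented by the probe set 11739155_s_at in the fit over genes, since it had the highest mean signal of the 3 over all arrays, 7.31 on the log2 scale. Its group means ran over 4.06 log2 units, with the lowest in the cells before the change of medium and the highest under compound 16 without serine at 24 h. Probe set 11755895_a_at had a mean of 5.46 and group means over 3.21 units. Probe set 11739154_at had a mean of 5.22, near the middle of all probe sets, and group means over only 0.98 units. NIBAN2 was represented by 11757485_x_at, at a mean of 11.27 and the 96th percentile of probe sets, whose group means ran over 0.38 units. Its other probe set, 11720350_a_at, had a mean of 8.88 and group means over 0.55 units. Signals of different probe sets are not comparable as levels, because each has its own response.

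NIBAN1 was strongly raised by compound 16, and the time at which this showed differed between the media. In medium without serine at 6 h its signal was 9.45, 9.52 and 9.39 under compound 16, against 7.64, 8.06 and 7.86 in DMSO. The arrays of the groups did not overlap, and the lowest compound array lay above the highest DMSO array by more than the whole spread within either group. The difference was 1.60 ± 0.16 (SE) on the log2 scale, 3.04-fold, with an adjusted p of 5.88e-09 in limma. Among 18236 genes, 3 changed more, and 2.72% were called in either direction at an adjusted p under 0.05. Those 3 were DDIT3, TRIB3 and STC2, stress and ATF4 target genes, with 1.91, 1.85 and 1.71.

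In medium with serine at 6 h no such rise was seen. NIBAN1 signal was 6.34, 6.35 and 6.56 under compound 16, against 6.83, 6.87 and 6.79 in DMSO. All 3 compound arrays lay below the DMSO arrays, yet the difference of -0.41 ± 0.16 did not pass the test (unadjusted p 0.0157, adjusted p 0.802, 95% interval -0.74 to -0.08). In that comparison limma called 0% of genes, while 1102 genes had an unadjusted p under 0.05. The compound effect without serine exceeded that with serine by 2.01 ± 0.23 at 6 h, an interaction with an adjusted p of 3.63e-07. It was the largest such difference of all genes, of which 0.899% were called.

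At 24 h NIBAN1 also rose in medium with serine. Its signal was 7.68, 7.39 and 7.73 under compound 16, against 6.18, 5.42 and 6.02 in DMSO. The groups were apart on every array, with array 97, at 5.42, the lowest of the DMSO group. The difference was 1.73 ± 0.16, 3.31-fold, with an adjusted p of 1.27e-09, and was second in size after STC2 at 1.89, where 1.37% of genes were called. Leaving out single arrays gave 1.50 to 1.88. The compound effect with serine was larger at 24 h than at 6 h by 2.14 ± 0.23 (adjusted p 6.38e-08), the largest such change of any gene, with 0.494% of genes called.

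Without serine at 24 h, the comparison that led to the choice of NIBAN1, its signal was 9.95, 9.86 and 9.95 under compound 16, against 6.89, 6.38 and 6.44 in DMSO. These are the highest values of NIBAN1 in the study and the difference was 3.35 ± 0.16, or 10.2-fold. By absolute size it stood first, and the genes just after it were STC2, a secreted glycoprotein, at 2.73, BCAT1, the cytosolic branched-chain aminotransferase, at 2.33, and NUPR1, a stress-induced chromatin protein, at 2.30. In that comparison 7.08% of genes were called. The 24 h compound effect was 1.62 larger without than with serine, where 1.29% of genes were called. Nothing is read from these shares, because the comparison chose the gene.

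**Figure D1:**
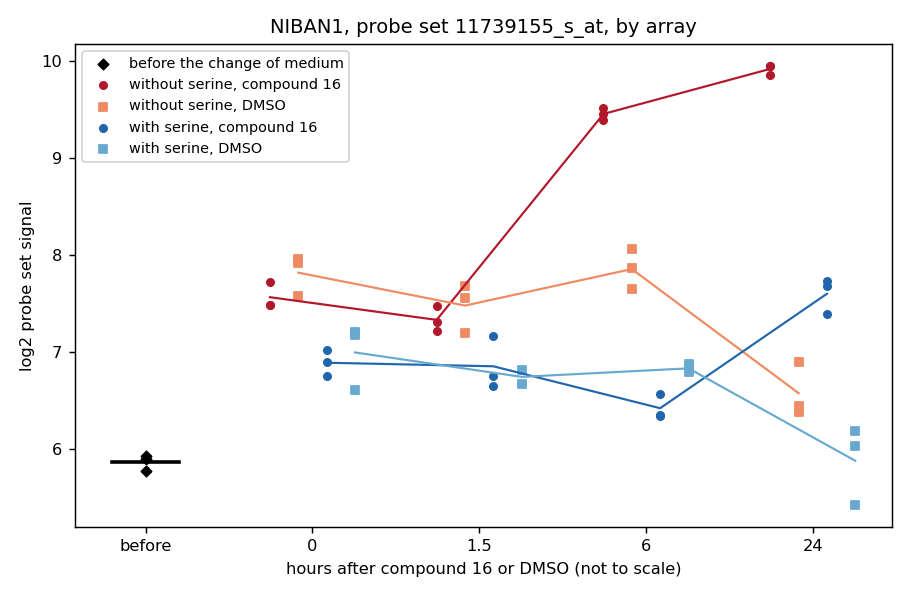
NIBAN1 signal of probe set 11739155_s_at (y axis, log2) on each of the 50 arrays, before the change of medium and at 0, 1.5, 6 and 24 h after compound 16 or DMSO (x axis, not to scale); lines join group means. Without serine the compound arrays stand apart at 6 and 24 h, and with serine at 24 h, where they lie between 7.39 and 7.73.

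Before 6 h compound 16 made no detectable difference. Without serine at 0 h the signal was 7.72, 7.48 and 7.48 under compound 16, against 7.58, 7.96 and 7.91 in DMSO. At 1.5 h without serine it was 7.21, 7.47 and 7.30 under compound 16, against 7.20, 7.68 and 7.55 in DMSO. These groups overlapped, with differences of -0.25 ± 0.16 (adjusted p 0.786) at 0 h and -0.15 ± 0.16 (adjusted p 1) at 1.5 h. With serine, the values at 0 h were 7.02, 6.89 and 6.75 under compound 16, against 6.61, 7.20 and 7.17 in DMSO. At 1.5 h with serine they were 6.75, 7.16 and 6.64 under compound 16, against 6.67 and 6.81 in DMSO. Again the groups overlapped, and the differences of -0.11 and 0.11 had adjusted p-values of 0.998 and 1.00. The shares of genes called were 0% at 0 h in either medium, 0.0823% at 1.5 h without serine and 0% at 1.5 h with serine. In the comparisons with 0%, limma gave 1318 genes an unadjusted p under 0.05 without serine at 0 h, 1030 with serine at 0 h and 613 with serine at 1.5 h. The difference between the media in the compound effect at 1.5 h was -0.26 ± 0.24 (adjusted p 0.998), with 0.0165% of genes called.

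Seen along time, the rise without serine came between 1.5 and 6 h. Under compound 16 without serine NIBAN1 was higher at 6 h than at 1.5 h by 2.13 ± 0.16 (adjusted p 1.4e-12, 6.57% of genes called). The compound effect itself was larger at 6 h than at 1.5 h by 1.75 ± 0.23 (adjusted p 1.06e-05), first of all genes, where 0.614% were called. From 6 to 24 h the level under compound 16 moved by a further 0.47 and that in DMSO by -1.28, so both sides widened the gap. Neither value was tested. With serine, NIBAN1 under compound 16 was higher at 24 h than at 6 h by 1.18 ± 0.16 (adjusted p 6.03e-07), in a comparison with 20.1% of genes called. Over the same hours it fell in DMSO with serine by 0.95 ± 0.16 on the log2 scale (adjusted p 3.73e-05, 15.5% of genes called). Time and block of title numbers coincide, so these changes along time within 1 treatment cannot be told apart from a shift of a block. Each compound effect compares groups of 1 block. The numbers there run group by group, so a drift within the block cannot be told apart from that effect.

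Lack of serine alone went with more NIBAN1. In DMSO the arrays without serine lay above those with serine at 0, 1.5 and 6 h, with no overlap. The differences were 0.82 ± 0.16 at 0 h (adjusted p 0.00123, 5.91% of genes called), 0.74 ± 0.18 at 1.5 h (adjusted p 0.0217, 1.98% called) and 1.03 ± 0.16 at 6 h (adjusted p 8.86e-05, 3.2% called). At 24 h the difference was 0.70, without a test, and 0.47 without array 97. The calls at 0 and 1.5 h rest on the spread shared over all 50 arrays: with only the arrays compared, the adjusted p-values were 0.141 and 0.173. At 1.5 h leaving out either DMSO array with serine, or array 55 or 56 without serine, also ended the call.

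Under compound 16 the lack of serine changed NIBAN1 far more at 6 h than earlier. It was higher without serine by 0.68 ± 0.16 at 0 h (adjusted p 0.00983, 4.14% of genes called), a call lost with only these arrays (adjusted p 0.154) and without array 12 or 16. At 1.5 h the difference of 0.48 ± 0.16 did not pass (adjusted p 0.107, 3.35% called), but did without array 47 at 0.63. At 6 h it was 3.04 ± 0.16, 8.22-fold (adjusted p 4.61e-17), second after STC2 at 3.42, in a comparison with 11.8% of genes called. At 24 h it was 2.32, without a test.

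The change of medium itself also went with a higher signal. NIBAN1 was 7.58, 7.96 and 7.91 after 24 h without serine in DMSO and 6.61, 7.20 and 7.17 after 24 h with serine, against 5.77, 5.89 and 5.92 before the change. Every array after the change lay above every array before it. The differences were 1.96 ± 0.16 without serine (adjusted p 2.96e-12, 28.7% of genes called) and 1.14 ± 0.16 with serine (adjusted p 1.11e-06, 21.8% called). Ordered by mean, the 17 groups run from 5.86 in cells before the change and 5.87 in DMSO with serine at 24 h, whose arrays overlap, up to 9.46 and 9.92 under compound 16 without serine at 6 and 24 h. The largest step between neighbours, 1.60, separates these top groups from DMSO without serine at 6 h at 7.85. Of the 16 steps, arrays of neighbouring groups were apart in 4, and in the others the neighbours did not differ beyond their spread.

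The other NIBAN1 probe sets followed this only in part. Probe set 11755895_a_at read 7.42, 7.43 and 7.16 under compound 16 without serine at 6 h, against 5.70, 5.37 and 5.68 in DMSO. With serine at 24 h it read 5.86, 5.79 and 5.80 under compound 16, against 4.66, 4.82 and 4.95 in DMSO. The groups did not overlap in either comparison, and the differences were 1.75 ± 0.18 (adjusted p 1.59e-08 over all probe sets, 1.52% called) and 1.01 ± 0.18 (adjusted p 0.00103, 0.755% called). Its compound effect at 6 h was 2.00 ± 0.26 larger without than with serine (adjusted p 5.63e-06, 0.489% called), and its group means correlated with those of 11739155_s_at at r = 0.95 over 17 groups, or 0.92 over the 15 groups that did not choose NIBAN1, all read from the same arrays.

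For the medium alone this probe set gave less. Lack of serine in DMSO was 0.19 at 0 h (3.71% of probe sets called), 0.53 at 1.5 h (1.01% called) and 0.51 at 6 h (1.71% called), none of them called. In the compound 16 arm lack of serine was called, at 0.75 at 0 h (adjusted p 0.0176, 2.42% called). At 6 h it was 2.51 (adjusted p 3.26e-13, 7.83% called). By its label the 0 h arm had spent 0 h with the compound. Means there were 5.50 without and 4.75 with serine, against 5.39 and 5.20 in DMSO. The 0.75 beside 0.19 is therefore not read as an effect of the compound. The change of medium gave 0.62 without serine (adjusted p 0.0105, 22.7% called) and 0.43 with serine (adjusted p 0.113, 16% called). Among the comparisons of media in DMSO, both brighter probe sets passed only for the change to medium without serine.

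Probe set 11739154_at hardly followed. It read 5.56, 5.29 and 5.43 under compound 16 without serine at 6 h, against 5.22, 5.36 and 5.23 in DMSO, overlapping values with a difference of 0.15 (adjusted p 0.840). With serine at 24 h the difference was -0.28 (adjusted p 0.584), opposite in sign to the others. Its group means correlated at r = 0.65 with 11739155_s_at and 0.75 with 11755895_a_at over 17 groups, and at 0.35 and 0.43 over the 15 groups that did not choose NIBAN1. At 24 h without serine it read 5.68, 6.31 and 5.83 under compound 16, against 5.62, 5.02 and 5.16 in DMSO, a difference of 0.68 given without a test. The files hold no probe positions, and where in the transcript each probe set lies was not used here.

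**Figure D2:**
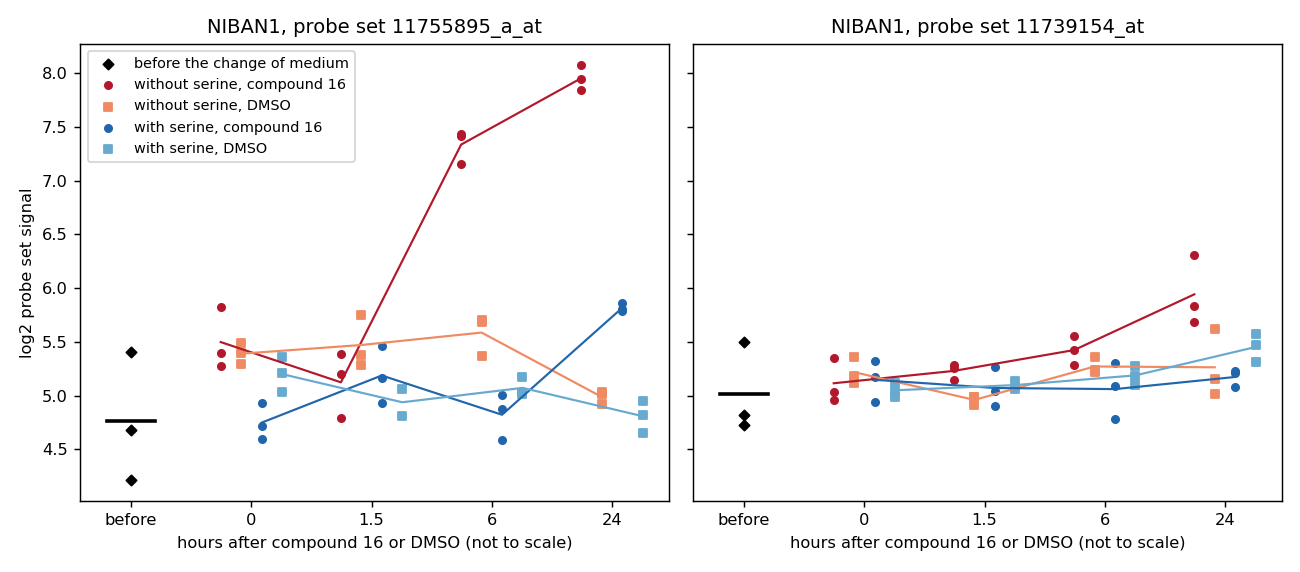
Signals (y axis, log2) of the NIBAN1 probe sets 11755895_a_at (left) and 11739154_at (right) on each array, by time (x axis, not to scale); lines join group means. The left one separates compound 16 from DMSO without serine at 6 h, by 1.75, and the right one does not, at 0.15.

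NIBAN2, on the probe set that represents it, showed little difference in any comparison with compound 16, and none passed of the 7 that were tested. Without serine at 6 h its signal was 11.15, 11.25 and 11.13 under compound 16, against 11.09, 11.29 and 11.18 in DMSO. With serine at 24 h it was 11.32, 11.10 and 11.17 under compound 16, against 11.16, 11.23 and 11.21 in DMSO. The groups overlapped in both, with differences of -0.01 (95% interval -0.17 to 0.15, adjusted p 0.987) and -0.003 (95% interval -0.16 to 0.15, adjusted p 0.994). On this probe set the estimates over the 8 comparisons of compound with DMSO lay between -0.07 and 0.08. Their intervals reached at most -0.23 and 0.24. Group means of the other NIBAN2 probe set lay further apart in some of these comparisons, in either direction. Without serine at 0 h they were 9.05 under compound 16 against 9.18 in DMSO. At 24 h they were 8.63 against 8.79 without serine, and 8.85 against 8.75 with serine. The corresponding interval for NIBAN1 without serine at 6 h was 1.27 to 1.93. A missed threshold does not show that NIBAN2 did not change.

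Lack of serine gave no call for NIBAN2, and the change of medium gave small ones. Lack of serine in DMSO gave 0.16 at 0 h (adjusted p 0.235, 5.91% of genes called). At 1.5 h it gave 0.05 (1.98% called) and at 6 h -0.07 (3.2% called). Under compound 16 at 6 h it gave -0.16 (adjusted p 0.199, 11.8% called). After the change of medium the signal was 11.41, 11.36 and 11.50 without serine in DMSO and 11.27, 11.30 and 11.21 with serine in DMSO, against 11.19, 10.99 and 10.95 before. Each array after the change lay above those before it. The differences were 0.38 ± 0.08 without serine (adjusted p 0.000196, 28.7% of genes called) and 0.22 ± 0.08 with serine (adjusted p 0.0414, 21.8% called). The second call was lost with each array centred on its median, with either other choice of probe sets, with only the arrays compared and without any of 4 single arrays. Probe set 11720350_a_at read 9.17, 9.17 and 9.19 without serine and 9.06, 8.99 and 9.06 with serine, against 8.84, 8.98 and 8.78 before the change. It passed without serine (0.31, adjusted p 0.0387, 22.7% of probe sets called) but not with serine (0.18, adjusted p 0.353, 16% called).

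Among its 17 group means, from 11.04 before the change to 11.42 at 0 h without serine, arrays of neighbouring groups overlapped at each step. Under compound 16 without serine NIBAN2 was 0.17 lower at 6 h than at 1.5 h, which did not pass (adjusted p 0.230). Group means of NIBAN1 and NIBAN2 correlated at r = -0.11 over the 17 groups. NIBAN3, the third family member, was dim on all 6 of its probe sets, with means from 4.21 to 5.14, and none was called in the 31 comparisons that use neither group of the one that chose NIBAN1.

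**Figure D3:**
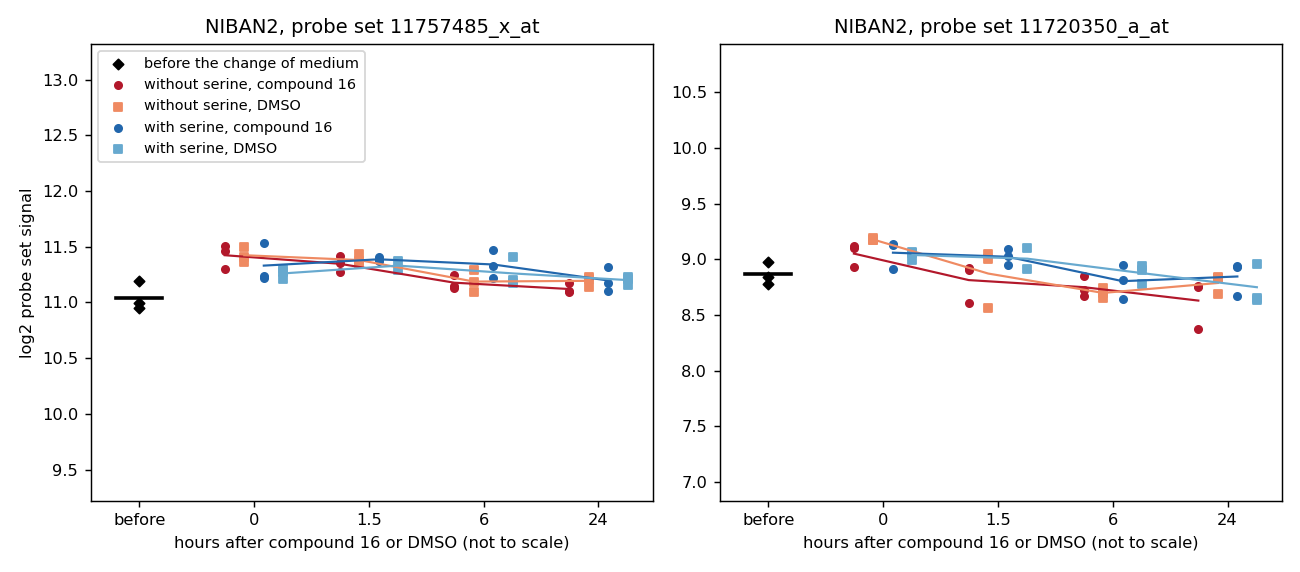
Signals (y axis, log2) of the NIBAN2 probe sets 11757485_x_at (left) and 11720350_a_at (right) on each array, by time (x axis, not to scale), on axes of equal span; lines join group means. In each panel the 4 arms run together, and the means of the left one lie between 11.04 and 11.42.

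**Figure D4:**
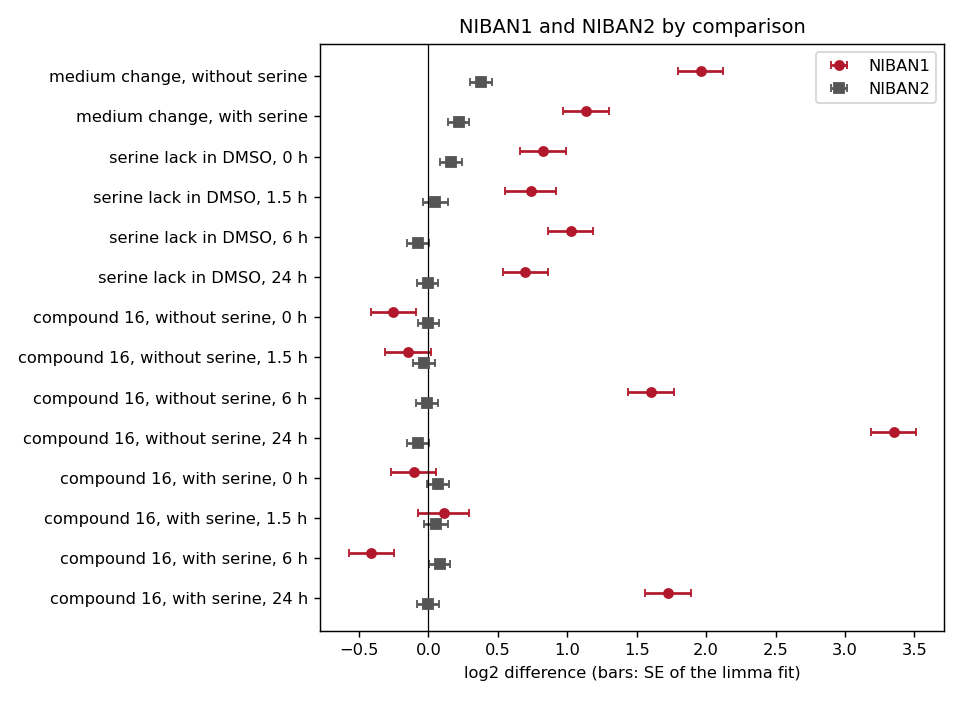
Log2 differences (x axis) of NIBAN1 and NIBAN2 in 14 comparisons (y axis), with the SE of the limma fit as bars. NIBAN1 reaches 3.35 under compound 16 without serine at 24 h, which was not tested. The compound effects of NIBAN2, on the probe set that represents it, lie between -0.07 and 0.08.

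The amino acid response genes, 19 known targets and factors of the ATF4 pathway, were mostly higher under compound 16 in the comparisons in which NIBAN1 was. Without serine 3 of them were higher at 1.5 h (ATF3, DDIT3 and DDIT4), where 0.0823% of all genes were called, and 17 at 6 h, where 2.72% were called and the median difference was 0.88, against -0.01 over all genes. With serine 15 were higher at 24 h, where 1.37% of all genes were called, with a median of 0.82, against 0.00 over all genes, and none at 6 h. The effect at 6 h was larger without than with serine for 16 of them, where 0.899% of all genes were called, with a median of 0.93. None was lower in these comparisons. At 1.5 h without serine, then, NIBAN1 stood at -0.15 while DDIT3, a stress transcription factor, stood at 1.19 and ATF3 at 0.67.

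At 0 h the lack of serine alone went the other way in many of these genes than in NIBAN1. After 24 h in DMSO without serine 10 of the 19 were lower than with serine and none higher, where 5.91% of all genes were called, with a median of -0.26, against 0.005 over all genes, whereas NIBAN1 was higher by 0.82. STC2 was lower by 1.18 on the log2 scale (-1.18 ± 0.17, adjusted p 1.74e-05), PSAT1, of serine synthesis, by 0.74 (-0.74 ± 0.08, adjusted p 1.26e-07) and ATF4 itself by 0.26 (-0.26 ± 0.05, adjusted p 0.00118). With only the arrays compared, 6 genes in all were called there, against 1077. At 6 h in DMSO 13 of the 19 were higher without serine (3.2% of all genes called), with a median of 0.39, beside 1.03 for NIBAN1, though 5 were with only the arrays compared. Under compound 16 at 6 h 18 were higher without serine (11.8% of all genes called), with a median of 1.30, beside 3.04 for NIBAN1. The difference between NIBAN1 and the list was not tested.

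The change of medium split these genes. Without serine 5 were higher and 4 lower than before the change, where 28.7% of all genes were called, and with serine 9 were higher and 2 lower, where 21.8% were called. ATF3, an immediate stress factor, was -4.01 without and -3.41 with serine, while NIBAN1 was higher in both. Group means of the 19 genes correlated with those of NIBAN1 at a median r of 0.72 over 17 groups, from -0.12 for ATF3 to 0.85 for PHGDH, the first enzyme of serine synthesis. Without both groups that chose NIBAN1 the median was 0.64 over 15 groups.

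**Figure D5:**
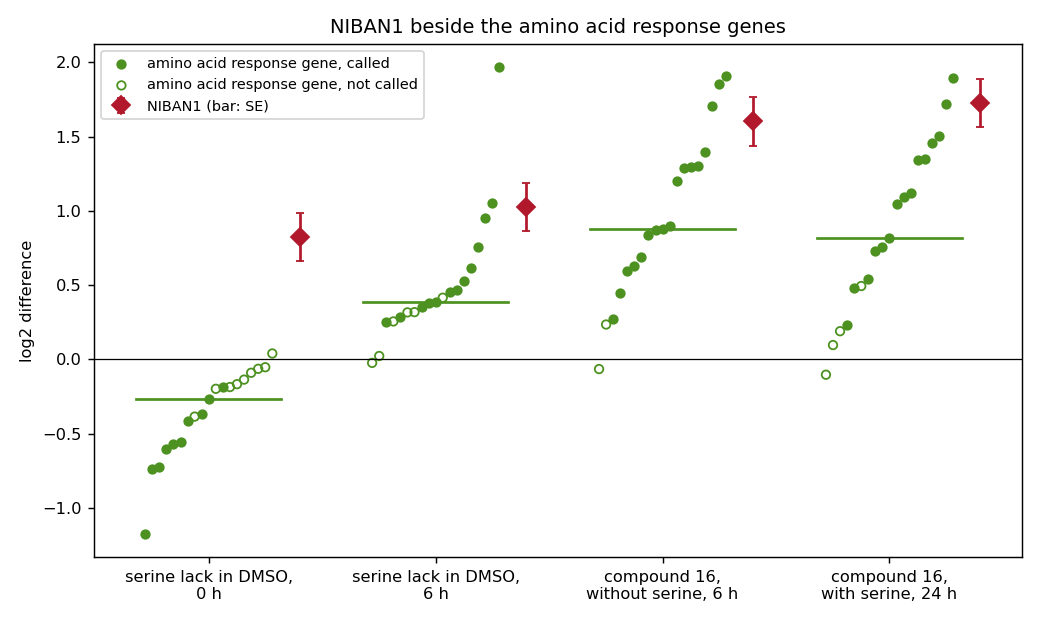
Log2 differences (y axis) of the 19 amino acid response genes (circles, filled where called, with a line at their median) and of NIBAN1 (diamond, with its SE) in 4 comparisons (x axis). NIBAN1 lies above each median, and at 0 h in DMSO it is at 0.82 while the median of the list is -0.26.

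Of 16 listed genes of translation control, among them those of eIF2alpha, S6K1 and 4E-BP1, EIF4EBP1 and PPP1R15A passed under compound 16. The comparisons were those without serine at 6 h and with serine at 24 h, where 2.72% and 1.37% of all genes were called. EIF4EBP1, which encodes the repressor 4E-BP1, was higher under compound 16 without serine at 6 h by 0.57 ± 0.06 (adjusted p 1.02e-08) and with serine at 24 h by 0.83 ± 0.06 (adjusted p 6.16e-13). Its effect at 6 h was 0.67 ± 0.08 larger without than with serine (adjusted p 1.78e-06). PPP1R15A, a subunit of the phosphatase that reverses eIF2alpha phosphorylation, was 0.50 higher without serine at 6 h. The other 14 passed in neither compound comparison, among them the kinase genes EIF2AK3 (-0.14 at 6 h without serine) and EIF2AK4, which encodes GCN2 (-0.21), and the S6K1 gene RPS6KB1 (0.12). The median of the 16 was 0.03 and 0.01 in those comparisons. After either change of medium 2 of 16 were higher and 4 lower, where 28.7% (without serine) and 21.8% (with serine) of all genes were called, with PPP1R15A at -1.79 without and -1.86 with serine.

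Of the p53 partners of NIBAN1, 4 of the 5 listed were measured, and none passed under compound 16 without serine at 6 h or with serine at 24 h. In these comparisons 2.72% and 1.37% of all genes were called. MDM2, the ubiquitin ligase of p53, was at 0.26 and 0.06 and CDKN1A, a p53 target, at 0.12 and 0.11. Under compound 16 without serine at 24 h, given without a test, CDKN1A stood at 0.31 and MDM2 at 0.02. The nucleophosmin gene NPM1 stood at 0.02 and AKT1 at -0.05 there. The lack of serine under compound 16 at 6 h gave 1 call, MDM2 at 0.30, in a comparison with 11.8% of all genes called. Of the partners and kinases of NIBAN2, 9 of 11 were measured. None passed under compound 16 without serine at 6 h or with serine at 24 h. KEAP1 stood at 0.07 and -0.07 and CTNNB1, the junction protein beta-catenin, at -0.18 and -0.09. The change to medium without serine, in which NIBAN2 was higher, gave 3 of 9 lower, a share near the 28.7% of all genes called there, namely EGFR at -0.42, the kinase gene MAP2K1 at -0.35 and NFE2L2, which encodes NRF2, at -0.28. Of 12 NRF2 targets 11 were measured, and SLC7A11, the cystine transporter that also stands in the amino acid response list, was the 1 called under compound 16, at 0.45 without serine at 6 h and 0.23 with serine at 24 h. NQO1 stood at 0.00 and -0.07 there.

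The nearest measured genes on either side, leaving out LOC symbols and open reading frame names, were examined as well. Near NIBAN1, with EDEM3 between them, lies TSEN15, which encodes a subunit of the tRNA splicing endonuclease. TSEN15 was higher under compound 16 without serine at 6 h by 0.41 ± 0.07 (adjusted p 0.000153, 2.72% of genes called). With serine at 24 h it was higher by 0.31 ± 0.07 (adjusted p 0.0113, 1.37% called). Its effect at 6 h was 0.57 ± 0.10 larger without than with serine (adjusted p 0.000604). In DMSO at 0 h it stood at -0.12 for lack of serine (adjusted p 0.346), where NIBAN1 was higher. EDEM3, TRMT1L and SWT1 passed in none of these compound comparisons, with EDEM3 at -0.11 without serine at 6 h (adjusted p 0.697). EDEM3, which trims glycoproteins for degradation, was 0.28 higher in DMSO without serine at 0 h (adjusted p 0.0479). Beside NIBAN2, SNORA65, LRSAM1, TTC16 and CFAP157 passed in no compound comparison named here. In the changes of medium 28.7% of genes were called without and 21.8% with serine. There CFAP157, a cilium protein gene dim at a mean of 4.06, was called lower in both (-0.39 without and -0.40 with serine). Near NIBAN1, SWT1, at a mean of 5.18, was called higher in both (0.48 and 0.445). EDEM3 was called higher without serine (0.40) but not with serine (0.13). TSEN15, TRMT1L and the other neighbours of NIBAN2 were called in neither.

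The genes most like NIBAN1 by Pearson correlation of the 17 group means, among 1320 genes whose means ran over at least 1 log2 unit, were BEX2 (r = 0.95), BCAT1 (0.92), RAB39B (0.92), TM6SF1 (0.90), CYP4V2 (0.89), SARS1 (0.88), GRB10 (0.88) and SPX (0.87). SARS1 is the seryl-tRNA synthetase and RAB39B a small GTPase. BEX2 ran over 2.00 units, and its compound effect without serine at 6 h was 1.02. The lowest correlations were those of the cell division genes SPC24 (-0.92), ANLN (-0.92) and CDC20 (-0.88). Without both groups that chose NIBAN1, BEX2, RAB39B, GRB10 and BCAT1 were again among the 8, now of 1077 genes and 15 groups, and the other 4 were ZHX2, SH3BP2, OGT and ATP2A3. For NIBAN2, among 8326 genes over at least 0.5 units, the highest were KRT19 (0.88), LTO1 (0.87), MTERF1 (0.87), RASSF7 (0.86) and PNPLA3 (0.86) and the lowest YY2 (-0.84), TBC1D24 (-0.79) and ARHGAP4 (-0.75). Over the 15 groups, among 7680 genes, KRT19, LTO1 and PNPLA3 were again among the 5 highest for NIBAN2, with KRT15 and MVK in place of MTERF1 and RASSF7. YY2 was again among the 3 lowest, with GABPB1 and LINC00941 in place of TBC1D24 and ARHGAP4. All these means come from the same arrays, so they are descriptions.

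The promoter windows of these genes were searched too. The C/EBP-ATF element was in 5 of the 17 amino acid response genes with a RefSeq entry, namely ASNS, ATF3, CEBPG, CHAC1 and FGF21, counting a gene if any of its windows held it, and in 1 of the 7 most like NIBAN1 with an entry, BCAT1. Counted in the same way, 3.89% of all 27305 genes with an entry held it, and NIBAN1 itself had none in the bases shown above.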

How the data were processed

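Trizol-extracted total RNA was hybridised to 50 Affymetrix HG-U219 arrays, per the labels' protocols. The authors deposited log2 signals of probe sets, summarised by RMA per the submitters' processing notes, which also name limma. No version or option of either is stated there. RMA normalizes between arrays, which removes a shift shared by all genes, and its summaries compress changes of dim probe sets. No detection call was used. All columns were matched to samples by accession and title, 0 were left without a sample, and no 2 arrays held identical values.

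Of 49386 probe sets, 45345 had 1 gene symbol, 1235 several and 2713 none, and 93 were controls. RefSeq (GRCh38.p14) replaced 75 outdated symbols. The probe set with the highest mean stood for each gene. Values were used as deposited, with no pseudocount and no filter on signal. The fit over genes took only probe sets with 1 gene symbol. Group means of all 50 arrays were fitted in limma 3.58.1 (R 4.3.3) with eBayes (33 residual and 3.70 prior degrees of freedom) over genes, and over all probe sets other than controls. Calls required an adjusted p under 0.05 (Benjamini-Hochberg, separately in every comparison). The number of arrays limits the precision, with a median SE of 0.122 on the log2 scale. The fit was tested on simulated data. The genes, lists and comparisons were chosen with earlier results of these data known.

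Genes named were the family, the 8 highest and 3 lowest correlations with NIBAN1, the 5 highest and 3 lowest with NIBAN2, the 3 genes after NIBAN1 in the comparison that chose it, the lists, and the 2 nearest measured genes on each side. For correlations and neighbours, symbols starting with LOC and open reading frame names were skipped. Genes ranked beside NIBAN1 in other comparisons were also named, after their values were seen. Alternatives were another filter, normalization, choice of probe sets, weights, prior, the arrays in the fit, and leaving out each array. Background correction could not be redone and slides are not given.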

Additional observations from a re-analysis of the deposited data

Results flagged for a closer look

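Effects of compound 16 that differed between media or times by a test of the difference itself were these. The effect on NIBAN1 at 6 h was larger without than with serine by 2.01 (adjusted p 3.63e-07 in limma, 3 arrays a group). Without serine the effect on NIBAN1 was larger at 6 h than at 1.5 h by 1.75, and with serine it was larger at 24 h than at 6 h by 2.14. At 6 h the effect was also larger without than with serine for TSEN15, a neighbour of NIBAN1 with EDEM3 between them, by 0.57, and for EIF4EBP1 by 0.67. With at most 3 arrays a group, single arrays were not screened as outliers.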

How the results depend on the processing

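No paired analysis was possible because no groups share title numbers. In the other settings 592 values of NIBAN1 and NIBAN2, and in the fits without single arrays 527, kept their side of the threshold. Untested values among these moved by less than 1 SD. None reversed, but a change of sign between tested values that pass in neither setting was not counted. For untested values it was counted only where the main value exceeded 1 SD. The NIBAN2 change with serine (0.22) no longer passed with arrays centred on their medians (0.19, adjusted p 0.0812), the mean of probe sets (0.20, 0.0508), the probe set of largest variance (0.18, 0.367) or only the arrays of the comparison (0.22, 0.153), and ranged from 0.17 to 0.29 without single arrays, where leaving out array 2, 3, 13 or 14 ended the call. With the mean of probe sets, NIBAN1 gave 2.33 for compound 16 without serine at 24 h, 0.23 and 1.74 for lack of serine at 24 h in DMSO and under compound 16, 1.16 for the compound effect without serine at 24 h less that at 6 h, -0.63 for 24 h less 6 h in DMSO without serine, and, losing its call, 0.38 for lack of serine in DMSO at 1.5 h (adjusted p 0.0582); this mean takes in the probe set that hardly moved. With the probe set of largest variance, NIBAN2 gave -0.25 for the difference between media at 24 h, -0.22 for lack of serine under compound 16 at 24 h and -0.21 for the compound effect at 24 h less 6 h without serine. With only the arrays compared, lack of serine kept its values but lost its calls for NIBAN1 at 0 h in DMSO (0.82, 0.141), at 1.5 h in DMSO (0.74, 0.173) and at 0 h under compound 16 (0.68, 0.154). Without single arrays the lack of serine ranged from 0.64 to 0.88 in DMSO at 1.5 h (lost without array 49, 50, 55 or 56), from 0.60 to 0.74 under compound 16 at 0 h (lost without 12 or 16), from 0.38 to 0.63 under compound 16 at 1.5 h (passing without 47) and from 0.47 to 0.85 in DMSO at 24 h, and the difference between media at 24 h from 1.47 to 1.85 (both outermost without 97). Counts of genes called moved with the settings. Under compound 16, the 496 genes without serine at 6 h became 232 with the probe set of largest variance, 768 with array weights and 89 with only the arrays compared, the 1291 at 24 h became 847 and 441 with the first and last of these, and the 250 with serine at 24 h became 133 and 24, and 391 without dim genes. The 164 genes of the difference between media at 6 h became 88 and 56. For lack of serine in DMSO, 1077, 361 and 584 genes at 0, 1.5 and 6 h became 582, 188 and 320 with the probe set of largest variance and 6, 1 and 25 with only the arrays compared, in fits with fewer arrays. The genes most like NIBAN1 and NIBAN2 changed in part without both groups that chose NIBAN1.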
